A study of Mus musculus with 2 samples.

Results

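Oxidative phosphorylation (OXPHOS) is carried out by 5 protein complexes of the inner mitochondrial membrane, and most of their subunits are encoded in the nucleus. The nuclear-encoded subunit and assembly genes examined here were those whose symbols start with *Nduf*, *Uqcr*, *Cox4i*, *Cox5*, *Cox6*, *Cox7*, *Cox8* or *Atp5*, without names holding -ps, and with at least 20 unique molecular identifiers (UMIs, each counting 1 captured transcript molecule) in the AngII library. The rule gave 94 names, and 85 of them passed the minimum, of 55386 features in the matrix and 23772 with at least 1 UMI in either library. They comprised 37 genes of complex I, 8 genes named as complex I assembly factors, 8 of complex III, 15 of complex IV and 17 of complex V. The 13 protein genes of the mitochondrial genome (mt- genes) were read beside them.

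Complex I takes electrons from NADH, complex III passes them from ubiquinol to cytochrome c, complex IV reduces oxygen, and complex V, the ATP synthase, uses the resulting proton gradient to make ATP. The catalytic cores of complexes I, III and IV hold mt- subunits, so both genomes have to be expressed for the chain to be built. Macrophages are known to shift between oxidative and glycolytic metabolism with their state, and neutrophils are known for a largely glycolytic metabolism with few mitochondria.

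CD45+ cells were sorted from the aortic adventitia of *Rank*-Cre *Rosa26*-eYFP mice aged 16 weeks. In this line Cre is driven by the *Rank* gene and switches on a lasting eYFP reporter, which is used to trace macrophages of yolk sac origin. The steady-state library pooled 3 untreated animals, and the AngII library pooled 2 animals that had received angiotensin II, a hormone that raises blood pressure and inflames the artery wall, at 1.8 µg/kg/min for 10 days. Reporter and Cre were shared by both libraries, and there was 1 library per condition. No p-value could therefore be given, treatment and library cannot be told apart, and all intervals below are 95% intervals that cover counting error only.

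The steady-state library held 346 barcodes and 4009678 UMIs, and the AngII library 4419 barcodes and 20481854 UMIs, with 0 barcodes in common. Of these, 306 and 4198 passed the filter of 300 to 6500 detected genes and at most 5% mt- UMIs, with median depths of 9105 and 1092 UMIs. The limit on mt- UMIs caps the mt- levels reported below. Cells were gated from marker lists, with at least 3 UMIs from at least 2 genes of a list and at least 2 times the UMIs of every other list, which left 9.48% of the steady-state cells and 24.7% of the AngII cells unassigned. Most markers outside the gates were highest in their own class, among them *Csf1r*. It had 1234 and 711 UMIs per 1000000 UMIs of the class (CPM) in macrophages of steady state and AngII against 14.2 and 14.1 CPM in B cells, and *Lck* had 281 and 372 CPM in T cells. Others were shared. *Cd2* had 288 and 239 CPM in T cells and 349 and 284 CPM in B cells, and *Fcgr1* had 262 CPM in AngII macrophages and 247 CPM in AngII classical monocytes. *Ccr2* had 789 CPM in steady-state classical monocytes and 722 CPM in cDC1, and *S100a8* had 26566 CPM in AngII neutrophils and 2586 CPM in AngII mast cells. Doublets were left in.

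The gate gave 142 macrophages at steady state and 2503 on AngII. Within it, 136 steady-state cells and 782 AngII cells were called resident from *Lyve1*, *Folr2* and related genes. A further 725 AngII cells were called Arg1_Spp1 from *Arg1*, *Spp1*, *Inhba* and *Thbs1*, and 6 and 996 macrophages fell in neither list.

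The 9 names under the minimum were *Cox6c2* with 13 UMIs in the AngII library, *Cox8b* and *Ndufa4l2* with 8 each, *Cox4i2* and *Ndufs6b* with 7 each, *Ndufa11b* with 4, and *Cox7b2*, *Cox8c* and a second row named *Atp5o* with 0. The member nearest above it was *Ndufb4c* with 139 UMIs, and *Cox6c2* was the nearest under it. No lower minimum was run. Of the 11 names left out for -ps, only *Ndufb1-ps* with 9700 UMIs and *Ndufs5-ps* with 56 reached 20 UMIs in the AngII library. *Ndufb1-ps* had more UMIs there than 77 of the 85 members.

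Regulatory sequence upstream of the members was compared because the genes form 1 functional unit. RefSeq (GRCm38.p6) gave the 250 bases before the start for 71 of the 85 members. The letters CGCANGCG on either strand, the centre of the site of nuclear respiratory factor 1 (NRF1), a transcription factor of OXPHOS genes, occurred in 19 members (26.8%) against 7.65% of 27025 genes. The letters CCGGAAG, bound by ETS factors such as GABPA, occurred in 13 members (18.3%) against 7.83% of all genes. These matches are a description of the letters and were not tested as binding sites.

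The windows of 3 complex IV and complex V genes whose values differ below are shown, with both motifs in capitals. *Cox6a1* (chr5:115348959-115349208, minus strand) held 2 NRF1 matches and 1 ETS match, *Cox5a* (chr9:57520982-57521231, plus strand) held 0 and 0, and *Atp5l* (chr9:44920743-44920992, minus strand) held 1 and 1.
Cox6a1: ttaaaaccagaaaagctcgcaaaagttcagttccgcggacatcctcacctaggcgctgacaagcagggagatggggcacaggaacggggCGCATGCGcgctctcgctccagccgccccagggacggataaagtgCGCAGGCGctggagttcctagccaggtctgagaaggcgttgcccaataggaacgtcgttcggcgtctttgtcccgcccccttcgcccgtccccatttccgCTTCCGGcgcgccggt
Cox5a: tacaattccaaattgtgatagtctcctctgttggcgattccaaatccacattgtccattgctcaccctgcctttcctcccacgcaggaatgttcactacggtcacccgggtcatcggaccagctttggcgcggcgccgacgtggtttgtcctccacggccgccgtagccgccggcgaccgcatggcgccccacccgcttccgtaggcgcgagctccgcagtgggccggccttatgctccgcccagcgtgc
Atp5l: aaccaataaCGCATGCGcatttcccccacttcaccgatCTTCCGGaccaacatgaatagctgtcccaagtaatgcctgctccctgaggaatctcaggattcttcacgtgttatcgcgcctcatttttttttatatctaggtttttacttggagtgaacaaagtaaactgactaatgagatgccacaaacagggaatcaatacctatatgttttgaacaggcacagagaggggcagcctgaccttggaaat

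In steady-state macrophages the 85 genes together made up 14869 CPM (interval 14696 to 15043) and the mt- protein genes 9393 CPM (9256 to 9532). Values are 3′ UMI counts, 1 per molecule and not per length. The nuclear sum was led by subunits of complexes IV and V. *Atp5e*, a subunit of the ATP synthase rotor, had 623 CPM, and *Cox4i1*, the ubiquitous form of the complex IV subunit that takes part in ATP regulation, had 622 CPM. *Cox8a* (558 CPM) and *Cox7c* (546 CPM), both small complex IV subunits, came next. These 4 genes made up 15.8% of the nuclear sum.

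In complex V, *Atp5b*, the catalytic beta subunit, had 369 CPM and *Atp5j2* 336 CPM. In complex III, *Uqcrh*, the hinge protein, had 342 CPM, *Uqcrb* 260 CPM and *Uqcrq* 253 CPM. Complex I was led by *Ndufa13* with 295 CPM, *Ndufa2* with 252 CPM and *Ndufa3* with 199 CPM, all accessory subunits, and its 37 genes together reached 4306 CPM. As a group the assembly factors were lowest, with all 8 together at 167 CPM. They ran from 4.72 CPM (*Ndufaf5* and *Ndufaf6*) to 62.4 CPM (*Ndufaf8*), with *Ndufaf2* at 24.7 CPM. Some single genes of other groups lay under most of them, among them *Cox7a1* with 11.5 CPM. Single members thus spanned from 2.62 CPM (*Cox6a2*) to 623 CPM in 1 cell class.

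Levels differed between cell classes of the same library. At steady state the nuclear sum was 12822 CPM in 49 B cells, 14393 CPM in resident macrophages, 14474 CPM in 36 T cells, 16828 CPM in 9 cDC1, 18221 CPM in 11 classical monocytes and 20040 CPM in 5 cDC2. The intervals of resident macrophages (14218 to 14569) and T cells (14048 to 14909) overlapped, and that of B cells (12407 to 13248) lay under both. This order did not hold at equal depth. Among steady-state cells with 5000 to 10000 UMIs, resident macrophages had 10540 CPM (10199 to 10889). B cells had 12762 CPM (12327 to 13208) and T cells 13824 CPM (13325 to 14337) in that step. On AngII the same step had 15937 CPM in resident macrophages and 13615 CPM in B cells. On AngII the sum was 13784 CPM in 78 B cells. As summed, B cells were the lowest of the classes with at least 5 cells in each library. At steady state the interval of 6 nonclassical monocytes (12147.5 to 14422.5) overlapped theirs. Below them, 3 steady-state neutrophils had 9078 CPM (7520 to 10863) and 1 AngII plasma cell had 8004 CPM. The AngII sum was 16414 CPM in 27 migratory dendritic cells, 17203 CPM in 96 neutrophils and 22119 CPM in 59 cDC1. It was 22882 CPM in 103 classical monocytes and 26728 CPM in 217 T cells. Mast cells had 17484 CPM at steady state (9 cells) and 17310 CPM on AngII (23 cells), and the steady-state mast cells also held 5917 CPM of *C1qa*, *C1qb* and *C1qc*, which mark macrophages.

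**Figure D1:**
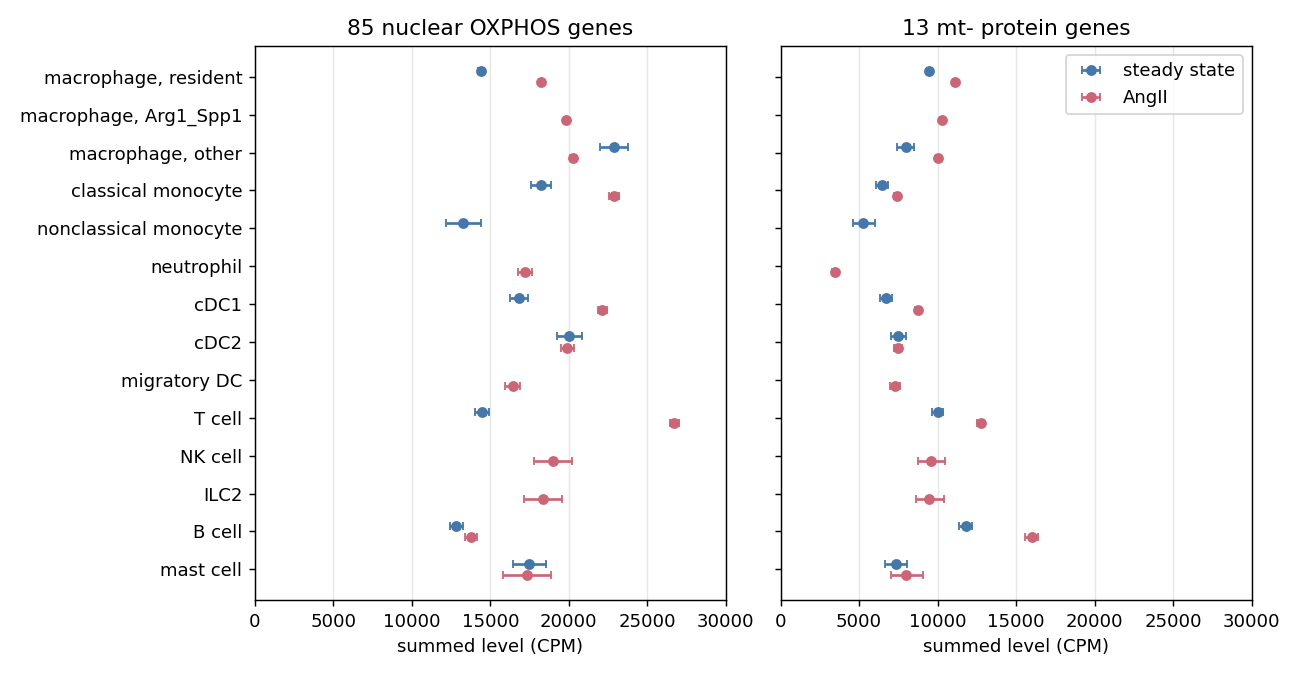
Summed level of the 85 nuclear OXPHOS genes (left) and the 13 mt- protein genes (right) per gated cell class, in CPM on linear axes, for steady state and AngII. Bars are exact 95% Poisson intervals, classes with fewer than 5 cells in a library are left out, and B cells are the class in which mt- levels on AngII exceed the nuclear sum.

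The mt- genes did not follow the same order. Among classes with at least 5 cells, B cells had the highest mt- levels, with 11791 CPM at steady state and 15996 CPM on AngII. AngII neutrophils had the lowest, with 3474 CPM (interval 3275 to 3683). The number of nuclear UMIs per mt- UMI was accordingly 0.862 in AngII B cells (interval 0.829 to 0.895), 1.83 in AngII macrophages (1.82 to 1.84), 3.09 in AngII classical monocytes (3.01 to 3.18) and 4.95 in AngII neutrophils (4.64 to 5.28). At steady state it was 1.09 in B cells, 1.45 in T cells, 1.58 in macrophages and 2.82 in classical monocytes. As summed per class, monocytes stood above macrophages and B cells below them in both libraries. For B cells at steady state this did not hold at equal depth. Among steady-state cells with 5000 to 10000 UMIs, macrophages had 10540 nuclear and 10966 mt- CPM, and B cells 12762 and 12098 CPM. In that step on AngII, macrophages had 16748.5 nuclear and 13910 mt- CPM, and B cells 13615 and 16173 CPM.

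Macrophages of the AngII library held more UMIs of the nuclear OXPHOS genes than those of steady state, with 19285 CPM (interval 19199 to 19372) against 14869 CPM, a ratio of 1.30 (1.28 to 1.31). All complexes lay above 1. The ratio was 1.33 (1.30 to 1.36) for complex I, 1.19 (1.05 to 1.34) for its assembly factors, 1.36 (1.31 to 1.42) for complex III, 1.27 (1.24 to 1.30) for complex IV and 1.27 (1.25 to 1.30) for complex V. The mt- protein genes had a ratio of 1.12 (1.10 to 1.14), from 9393 to 10537 CPM. Their ratio lay under 1 when each cell was weighted equally (0.970) or thinned to 1000 UMIs (0.943).

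Among the 84 members with at least 50 UMIs in both groups together, 77 had a ratio above 1. The median was 1.30, beside 0.993 over all 10020 genes with as many UMIs. A ratio of at least 1.5 was reached by 7 members (all genes: 15.1%), and a ratio of at most 1/1.5 by 2 members (all genes: 16.3%). The count of members past 1.5-fold higher thus lay under the share of all genes as summed here, but over it in 3 other settings. Among cells with 2000 to 20000 UMIs, 612 on AngII and 107 at steady state, 27 of 80 members were past 1.5-fold higher (all genes: 18.3%) and 2 lower (all genes: 18.3%), and the summed ratio was 1.42 (interval 1.39 to 1.44). With each cell weighted equally the count was 36 of 84 (all genes: 20.7%), and with cells thinned to 1000 UMIs it was 29 of 73 (all genes: 26.4%). Without the cell filter it was 14 of 84 (all genes: 15.04%) and with a stricter gate 13 of 84 (all genes: 15.4%), both near the share of all genes. The cause of these shifts was not tested.

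The highest ratios belonged to genes of complexes I and IV. *Cox5a* (chromosome 9, 57521274 to 57532426, GRCm38), a structural subunit of complex IV, had 250 CPM at steady state and 468 CPM on AngII, a ratio of 1.87 (interval 1.70 to 2.06). *Ndufc2*, an accessory subunit of complex I, had 138 and 251 CPM, a ratio of 1.82 (1.60 to 2.07). *Ndufb5* (ratio 1.72, interval 1.48 to 2.004) and *Ndufs3* (1.74, 1.38 to 2.22), a core subunit, and the assembly factor *Ndufaf3* (1.88, 1.29 to 2.81) completed the 5 highest. *Ndufaf3* rested on 31 UMIs at steady state. Among cells with 2000 to 20000 UMIs the ratio was 2.15 for *Cox5a* and 2.16 for *Ndufb5*. With cells thinned to 1000 UMIs, which leaves few UMIs of a single gene, it was 5.999 (2.31 to 22.2) for *Ndufb5* and 5.53 (1.49 to 46.2) for *Ndufs3*.

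Of the 5 lowest ratios, 4 belonged to genes with few UMIs. *Ndufb4c* (chromosome 15, 73809507 to 73809896, GRCm38), named after the complex I subunit gene *Ndufb4*, had 0.57 (interval 0.34 to 0.99) from 21 and 63 UMIs. How reads shared with *Ndufb4* were split was not tested, so its level is uncertain. *Cox6b2*, a form of complex IV subunit 6b known from testis, had 15.2 CPM at steady state and 9.40 CPM on AngII, a ratio of 0.62 (0.40 to 0.97). *Atp5g2*, a c-ring gene, had 0.71 (0.52 to 1.01) and *Ndufaf7* 0.76 (0.55 to 1.08), with 1 inside both intervals, and *Atp5g2* had 1.20 when each cell was weighted equally and 2.59 (0.43 to 106) when thinned. *Atp5l*, the g subunit of the ATP synthase, was the fifth, with 288 steady-state UMIs, 151 CPM at steady state and 132 CPM on AngII (ratio 0.87, interval 0.77 to 0.996). It lay above 1 when cells were weighted equally (1.10) or thinned to 1000 UMIs (1.39).

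Resident macrophages alone, which made up nearly all steady-state macrophages, had 14393 CPM at steady state and 18226 CPM on AngII, a ratio of 1.27 (interval 1.25 to 1.28). Of 80 members with at least 50 UMIs, 8 were past 1.5-fold higher (all genes: 12.7%) and 1 lower (all genes: 12.5%), with a median of 1.24 beside 1.01 for all genes. *Cox5a* was again highest with 2.01 (interval 1.81 to 2.24) and *Cox6b2* lowest with 0.52 (0.31 to 0.89).

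The depth of the cells differed between the libraries, with a median of 10392 UMIs per resident macrophage at steady state and 1647 on AngII, so the comparison was repeated in steps of depth. At steady state the nuclear sum was 12535 CPM in 12 cells with 2000 to 5000 UMIs, 10540 CPM at 5000 to 10000 UMIs, 13339 CPM at 10000 to 20000 UMIs and 17028 CPM from 20000 UMIs on. In the same steps the AngII cells had 17354, 15937, 17432 and 19679 CPM. AngII was higher in each of the 4 steps, with intervals that did not overlap. AngII cells under 2000 UMIs, a depth with fewer than 5 steady-state resident macrophages, had 18216 and 18729 CPM in the 2 shallowest steps.

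**Figure D2:**
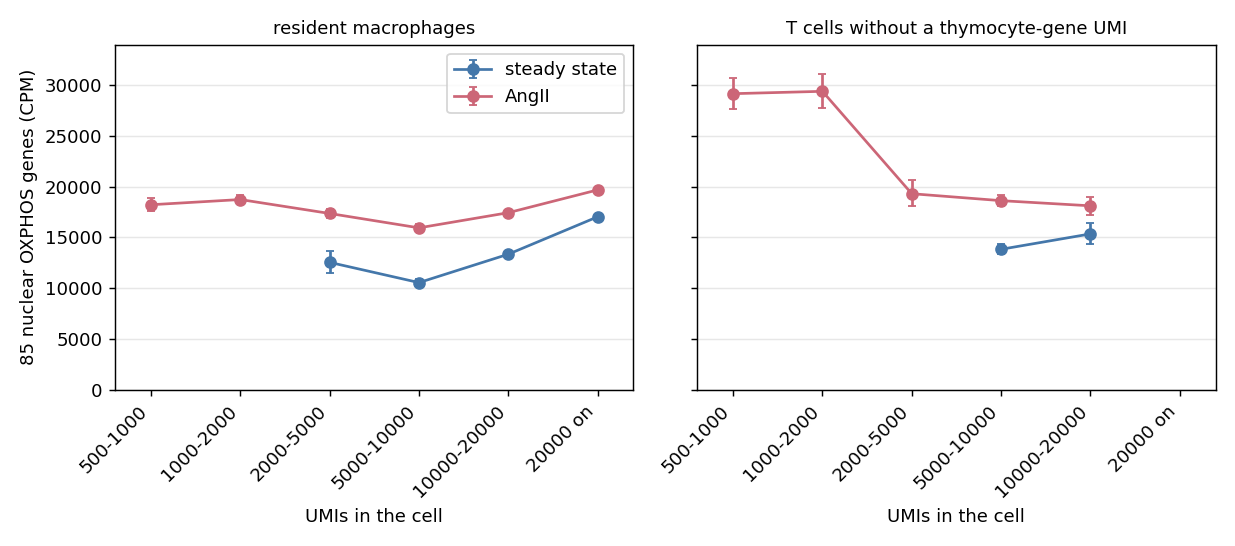
Summed level of the 85 nuclear OXPHOS genes in CPM by the number of UMIs in the cell, for resident macrophages (left) and T cells without a thymocyte-gene UMI (right), at steady state and on AngII. Bars are exact 95% Poisson intervals and steps with fewer than 5 cells are left out. The AngII points lie above the steady-state points wherever both are drawn.

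Single cells varied widely around these sums. Among resident macrophages with at least 2000 UMIs, the cells' own nuclear level had quartiles of 9104 and 15078 CPM around a median of 12480 CPM at steady state (132 cells), and of 14484 and 20648 CPM around 18165 CPM on AngII (323 cells). The middle ranges of the libraries overlapped. Cells of 1 library are not replicates, and no test was run on them.

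Resident macrophages with a *Yfp* UMI had slightly lower nuclear levels and higher mt- levels than those without. On AngII the ratio of *Yfp*+ (193 cells) to *Yfp*- cells (589 cells) was 0.949 (interval 0.935 to 0.962) for the nuclear genes and 1.17 (1.15 to 1.19) for the mt- genes. At steady state (100 and 36 cells) these were 0.963 (0.934 to 0.993) and 1.09 (1.05 to 1.13). The AngII *Yfp*+ cells were deeper, with a median of 7625 UMIs against 1291, and the part of depth in this difference was not tested.

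Other classes of both libraries gave ratios on both sides of 1. Classical monocytes had 18221 CPM at steady state and 22882 CPM on AngII, a ratio of 1.26 (interval 1.21 to 1.31), and cDC1 had 16828 and 22119 CPM, a ratio of 1.31 (1.27 to 1.36). For cDC2 the ratio was 0.993 (0.949 to 1.04) and for mast cells 0.990 (0.888 to 1.10), with 1 inside both intervals. The steady-state side of these ratios rested on 5 to 11 cells.

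B cells had 12822 CPM at steady state and 13784 CPM on AngII, a ratio of 1.08 (interval 1.03 to 1.12). Of 55 members with at least 50 UMIs, 2 were past 1.5-fold higher (all genes: 6.70%) and 3 lower (all genes: 12.9%). Their median was 1.05 beside 0.948 for all genes. *Ndufb10*, an accessory subunit of complex I, had 107 and 171 CPM, a ratio of 1.61 (1.02 to 2.58), and *Ndufc2* had 1.53 (0.83 to 2.94). *Cox6c*, a small complex IV subunit, had 402 and 247 CPM, a ratio of 0.62 (0.46 to 0.82), and the complex V subunit *Atp5k* had 0.65 (0.44 to 0.96). *Atp5l* had 0.64 (0.39 to 1.03). The mt- genes of B cells had the higher ratio, at 1.36 (1.30 to 1.42).

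T cells had the largest ratio of the classes compared, with 14474 CPM at steady state (36 cells) and 26728 CPM on AngII (217 cells), a ratio of 1.85 (interval 1.79 to 1.91). Complex V led with 2.06 (1.94 to 2.18), followed by complex I with 1.79 (1.69 to 1.90), complex III with 1.77 (1.61 to 1.96) and complex IV with 1.73 (1.63 to 1.84), while the mt- genes had 1.27 (1.22 to 1.32). Of 75 members with at least 50 UMIs, 57 were past 1.5-fold higher (all genes: 32.2%) and 0 lower (all genes: 16.4%), with a median of 1.95 beside 1.15 for all genes. The difference between the ratios of T cells and macrophages was not tested.

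In T cells, *Ndufb6* had 46.3 CPM at steady state and 192 CPM on AngII (ratio 4.16, interval 2.42 to 7.73), and *Ndufa8* had 66.1 and 239 CPM (3.62, 2.30 to 6.01). Both are accessory subunits of complex I. *Atp5g3*, which encodes the c subunit of the rotor ring, had 155 and 545 CPM (3.51, 2.61 to 4.83). *Ndufb2* (3.47, 1.97 to 6.65) and *Cox5b* (3.20, 2.40 to 4.36) were the other members at the top. *Cox7a2l*, a factor for assembling complexes III and IV into supercomplexes, went the other way, with 579 CPM at steady state and 396 CPM on AngII (0.68, 0.57 to 0.82). *Ndufb4* had 0.89 (0.51 to 1.64) and *Ndufaf4* 1.005 (0.58 to 1.83).

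The T cells of the libraries were not alike in kind. On AngII, 68 of the 217 cells held a UMI of *Rag1*, *Rag2*, *Dntt*, *Ptcra* or *Arpp21*, genes of developing T cells in the thymus, against 1 of 36 at steady state. This list was chosen after values had been seen. In the 68 cells *Dntt* had 464 CPM, *Il7r* 46.2 CPM and *H2-K1* 167 CPM, and in the other 149 cells *Il7r* had 469 CPM and *H2-K1* 2148 CPM. *Dntt* was at 0 UMIs in the steady-state T cells. The cycling genes *Mki67*, *Top2a*, *Birc5*, *Ube2c* and *Cdk1* together had 965 CPM in the 68 cells, 311 CPM in the 149 and 188 CPM at steady state. The steady-state level rested on 57 UMIs. In cells with 2000 to 20000 UMIs and no UMI of the thymus genes, it was 30.4 CPM at steady state (33 cells, 8 UMIs). In such cells on AngII it was 312 CPM (51 cells).

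The nuclear OXPHOS sum was 31007 CPM (interval 30587 to 31432) in the 68 cells and 20529 CPM (20118 to 20946) in the 149. Without cells holding such a UMI, in both libraries, the ratio of AngII to steady state was 1.44 (1.39 to 1.49). It was 1.31 (1.26 to 1.37) when the remaining cells were also limited to 2000 to 20000 UMIs, with 51 and 33 cells. Of 66 members with at least 50 UMIs in the cells without such a UMI, 28 were past 1.5-fold higher (all genes: 19.9%) and 0 lower (all genes: 8.96%). Their median was 1.44 beside 1.10 for all genes. The single genes named above had smaller differences from 1 there. *Ndufb6* had 2.35 (1.29 to 4.59), *Ndufa8* 2.32 (1.38 to 4.08), *Atp5g3* 2.04 (1.46 to 2.90), *Ndufb2* 2.90 (1.54 to 5.94), *Cox5b* 2.26 (1.64 to 3.16) and *Cox7a2l* 0.82 (0.67 to 1.01). AngII T cells of this kind had 29165 CPM at 500 to 1000 UMIs (66 cells) and 29397 CPM at 1000 to 2000 UMIs (31 cells). In the 3 deeper steps they had 18110 to 19303 CPM. A thymocyte gene can go uncounted in shallow cells, but the cause of this difference was not tested.

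Of the 55 members with at least 50 UMIs in macrophages, T cells and B cells alike, 32 had a ratio above 1 in all 3 classes. For 5 of them, *Atp5e*, *Cox4i1*, *Cox8a*, *Ndufb10* and *Uqcrh*, the whole interval lay above 1 in each. *Cox4i1* had ratios of 1.40 (interval 1.32 to 1.49) in macrophages, 2.01 (1.70 to 2.40) in T cells and 1.36 (1.10 to 1.70) in B cells. *Uqcrh* had 1.45 (1.34 to 1.58), 1.38 (1.17 to 1.63) and 1.38 (1.11 to 1.71). No member had its interval under 1 in all 3. The same counts are not given here for all genes. The median ratios of all genes were 0.993 in macrophages, 1.15 in T cells and 0.948 in B cells. The 3 comparisons come from the same pair of libraries.

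**Figure D3:**
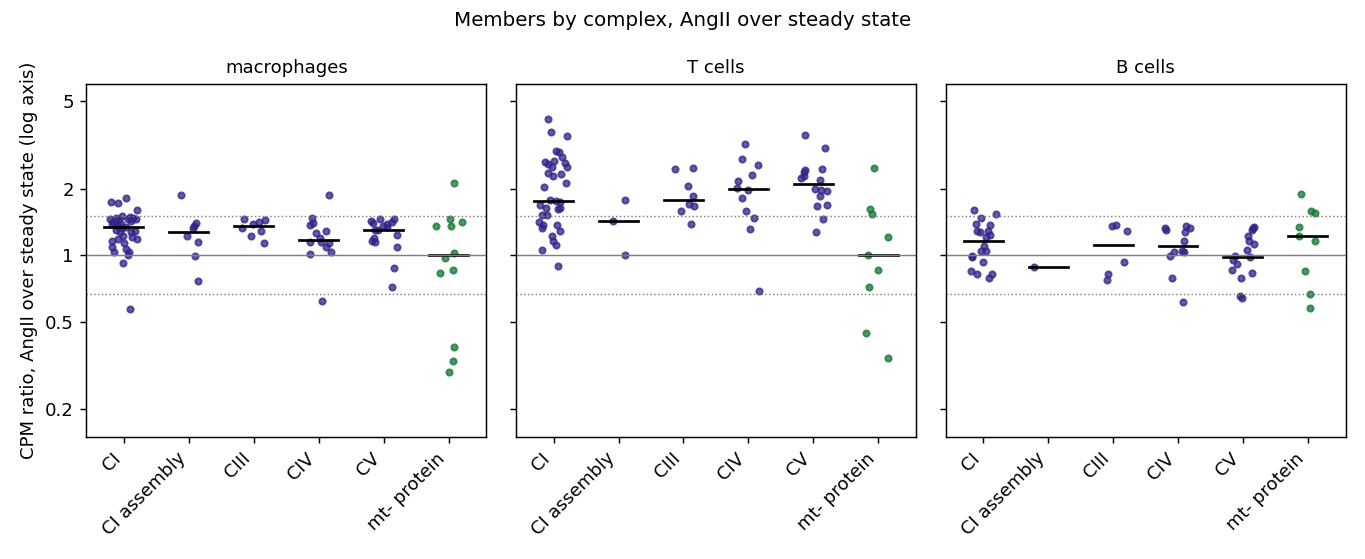
CPM ratio of AngII over steady state on a log axis for each member with at least 50 UMIs in both groups together, by complex (CI to CV) and for the mt- protein genes, in macrophages, T cells and B cells. Points are genes, short lines the medians, dotted lines 1.5-fold in either direction; T-cell members mostly lie above the upper dotted line, with 57 of 75 past it.

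The mt- protein genes differed among themselves. In macrophages, *mt-Cytb*, the mt- subunit of complex III, had 2634 CPM at steady state and 3559 CPM on AngII, a ratio of 1.35 (interval 1.31 to 1.39), and the complex I subunit *mt-Nd4* had 1441 and 1948 CPM (1.35, 1.30 to 1.41). *mt-Nd1* had 2311 and 2367 CPM (1.02, 0.99 to 1.06) and *mt-Nd2* 1550 and 1506 CPM (0.97, 0.93 to 1.01). The complex V subunit *mt-Atp6* had 1.41 (1.20 to 1.67). *mt-Co3* had 2.13 (1.15 to 4.38) and *mt-Co2* 1.46 (0.94 to 2.36) on 11 and 23 steady-state UMIs. *mt-Co1* had 0.83 (0.78 to 0.89) and *mt-Nd5* 0.85 (0.79 to 0.92). *mt-Nd3* had 1 and 5 UMIs.

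Lowest were *mt-Nd6* with 82.9 and 24.4 CPM (ratio 0.29, interval 0.24 to 0.36), *mt-Nd4l* with 25.2 and 8.30 CPM (0.33, 0.23 to 0.48) and *mt-Atp8* with 165 and 63.2 CPM (0.38, 0.34 to 0.44). In T cells *mt-Atp8* had 0.44 (0.31 to 0.64) and *mt-Nd6* 0.34 (0.22 to 0.55), and in B cells *mt-Atp8* had 0.58 (0.38 to 0.88) and *mt-Nd6* 0.67 (0.38 to 1.15). *mt-Nd4l* had fewer than 50 UMIs in both of these comparisons. In the annotation *mt-Atp8* shares 43 bases with *mt-Atp6*, *mt-Nd4l* shares 7 with *mt-Nd4*, and *mt-Nd6* shares 14 with *mt-Nd5* on the other strand. In each of these pairs in macrophages the member named first had the lower ratio. How reads in the shared bases were counted was not tested.

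**Figure D4:**
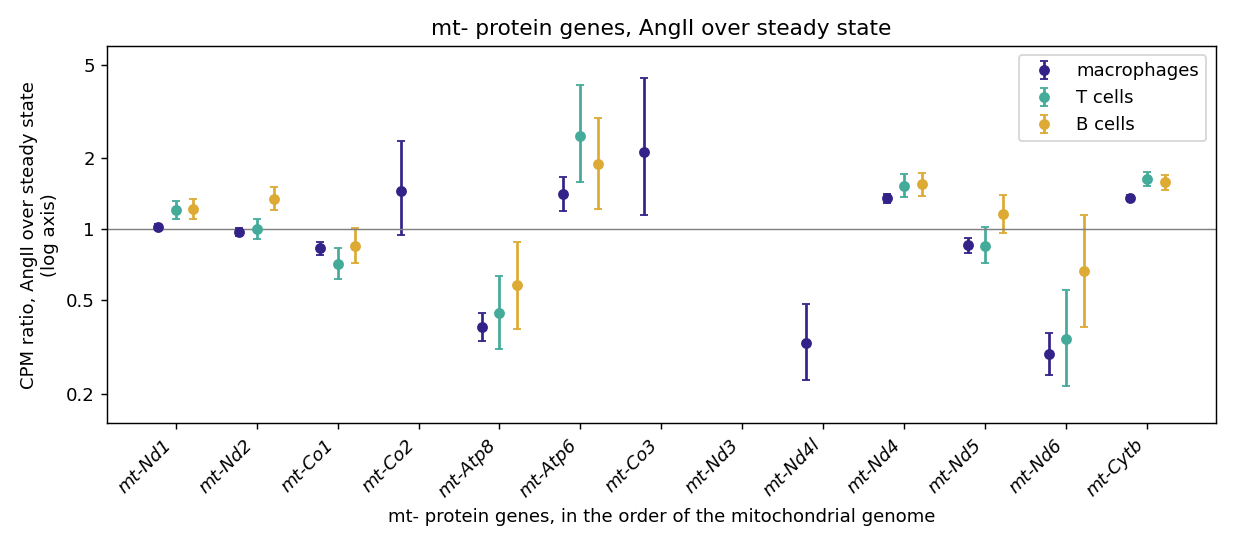
CPM ratio of AngII over steady state on a log axis for the mt- protein genes, in genome order, in macrophages, T cells and B cells, for genes with at least 50 UMIs in both groups together. Bars are 95% intervals for counting error; *mt-Atp8* and *mt-Nd6* lie under 1 in all 3 classes, and *mt-Nd4* and *mt-Cytb* above it.

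Within the AngII library, neutrophils were set against macrophages, so that animals and chemistry were shared. Their nuclear OXPHOS sum was 17203 CPM against 19285 CPM, a ratio of 0.892 (interval 0.868 to 0.916), and their mt- sum 3474 CPM against 10537 CPM, a ratio of 0.330 (0.311 to 0.350). The mt- ratio lay well under that of every nuclear complex, which ran from 0.780 (0.713 to 0.851) for complex III to 0.9496 (0.906 to 0.995) for complex IV. Cytosolic ribosomal protein genes took 5.73% of UMIs in neutrophils and 12.8% in macrophages. With ribosomal and mt- genes out of the denominator the nuclear ratio was 0.819.

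Of 84 members with at least 50 UMIs in the groups together, 27 were past 1.5-fold lower in neutrophils (all genes: 35.2%) and 3 higher (all genes: 22.4%), with a median of 0.754 beside 0.819 for all genes. Among the 12 mt- genes with as many UMIs, 9 were past 1.5-fold lower, with a median of 0.369. *mt-Nd1* had 0.25 and *mt-Nd4* 0.28, while *mt-Co3* had 0.75 and *mt-Nd6* 1.01. *C1qa*, *C1qb* and *C1qc* had 190 CPM in neutrophils and 9333 CPM in macrophages. These genes are on the macrophage list, and the gate leaves out cells with many UMIs of a second list. Their low level in neutrophils was thus partly set by the gate and does not measure free macrophage RNA or doublets.

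Members of the same complex differed in neutrophils. *Cox6a1*, the form of complex IV subunit 6a found in most tissues, had 596 CPM against 367 CPM in macrophages, a ratio of 1.62 (interval 1.40 to 1.88). *Cox7a2* had 1.49 (1.27 to 1.74), *Cox8a* 1.44 (1.29 to 1.61) and the complex V genes *Atp5l* 1.63 (1.26 to 2.07) and *Atp5md* 1.46 (1.23 to 1.73). In the same complex IV, *Cox4i1* had 605 against 872 CPM (0.69, 0.60 to 0.80), *Cox5a* 0.62 (0.50 to 0.76) and *Ndufa4*, a complex IV subunit in spite of its name, 0.59 (0.46 to 0.74). *Ndufa9* had 5 UMIs in neutrophils (0.25, 0.08 to 0.58) and *Ndufa5* 8 UMIs (0.25, 0.11 to 0.49), both accessory subunits of complex I. *Atp5g2* had 1 UMI (0.17, 0.0044 to 0.98), *Cox6b2* and *Ndufaf6* had 0, and *Ndufaf1* had 4 (1.52, 0.40 to 4.03).

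Arg1_Spp1 macrophages had 19811 CPM of the nuclear genes against 18226 CPM in resident macrophages of the same library, a ratio of 1.09 (interval 1.08 to 1.10), and an mt- ratio of 0.926 (0.913 to 0.939). Complex IV had the smallest nuclear ratio at 1.05 (1.03 to 1.07). Of 81 members with at least 50 UMIs, 0 were past 1.5-fold higher (all genes: 6.36%) and 1 lower (all genes: 9.70%), with a median of 1.10 beside 0.958. The lower 1 was *Ndufaf7* with 0.61 (0.42 to 0.87). *Ndufa6* (1.26, 1.15 to 1.38), *Atp5mpl* (1.25, 1.16 to 1.35) and *Atp5c1* (1.25, 1.14 to 1.36), the central stalk subunit, were among the highest. *Ndufa4* (0.83, 0.77 to 0.90) and *Cox5a* (0.88, 0.82 to 0.94) were among the lowest.

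**Figure D5:**
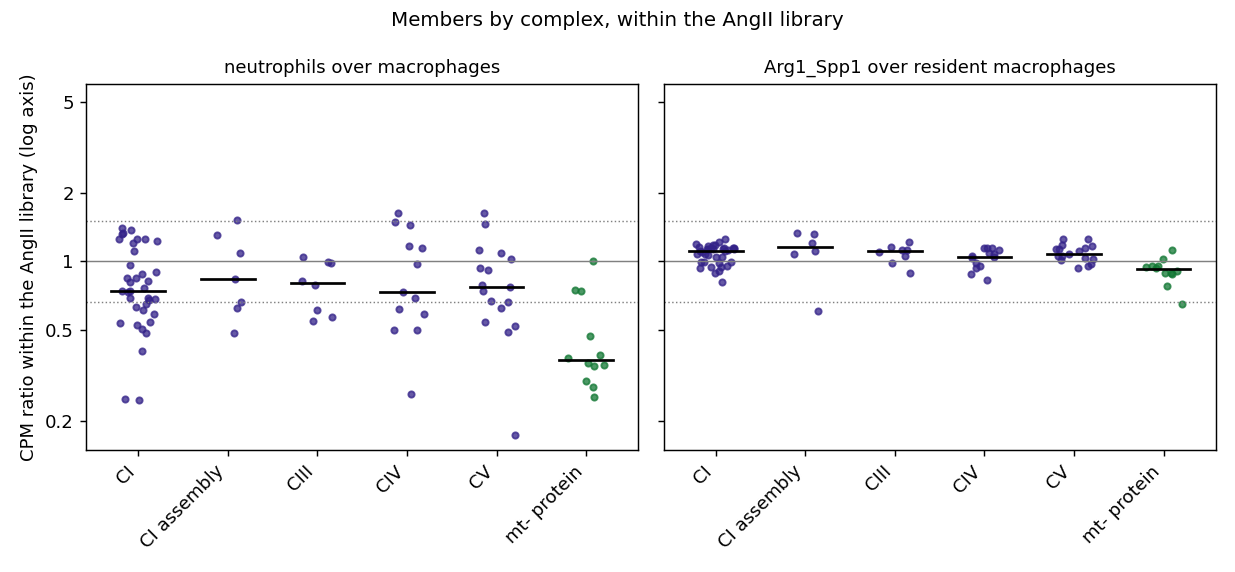
CPM ratio on a log axis of each member within the AngII library, for neutrophils over macrophages (left) and Arg1_Spp1 over resident macrophages (right), by complex (CI to CV) and for the mt- protein genes. Short lines are medians of the genes drawn, dotted lines 1.5-fold, and *Cox6b2* and *Ndufaf6*, with 0 UMIs in neutrophils, are not drawn; the mt- points lie low on the left (median 0.369).

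Most isoforms known from heart, skeletal muscle, lung or testis were scarce beside their ubiquitous partners. In AngII macrophages *Cox6b1* had 549 CPM and *Cox6b2* 9.40 CPM, and *Cox7a2* had 344 CPM and *Cox7a1* 11.7 CPM. *Cox4i2*, *Cox8b* and *Ndufa4l2* were under the minimum, with 0, 1 and 0 UMIs in the steady-state library. *Cox6a2* (chromosome 7, 128205435 to 128206387), the heart and muscle form of subunit 6a, had 2.90 CPM in AngII macrophages against 367 CPM of *Cox6a1*, and 0 UMIs in T cells, B cells and neutrophils of that library.

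*Cox6a2* was concentrated in few cells. In the AngII library 9 cells held at least 3 UMIs from at least 2 genes of the plasmacytoid dendritic cell (pDC) list (*Siglech*, *Klk1*, *Ccr9*, *Pacsin1*, *Cd300c*) and at least 2 times the UMIs of every list but that of classical monocytes. This group was drawn up after the *Cox6a2* values had been seen, so its values are a description. All 9 cells held a *Cox6a2* UMI, and they carried 94 *Cox6a2* UMIs, 70.7% of those in filtered cells. Their *Cox6a2* level was 1619 CPM against 413 CPM of *Cox6a1*, and the other 4189 cells had 2.17 and 384 CPM. The cell with the most had 30 *Cox6a2*, 4 *Cox6a1* and 66 *Siglech* UMIs. Only 1 of the 9 passed the main pDC gate, and 4 of the 9 held more UMIs of the monocyte list than of the pDC list. At steady state 0 cells met this definition.

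The rest of the pathway was read from fixed lists, beside all genes of which 15.1% were past 1.5-fold higher and 16.3% lower in macrophages. In macrophages on AngII against steady state, complex II, which links the chain to the citric acid cycle, had 0 of 4 genes past 1.5-fold in either direction and a median ratio of 1.28. Cytochrome c (*Cycs*: 1.63, interval 1.42 to 1.88) and cytochrome c1 of complex III (*Cyc1*: 1.32, 1.10 to 1.58) had 1 of 2 past 1.5-fold. *Cyc1* lies outside the name rule of the members. Of 15 assembly factors of complexes III and IV with at least 50 UMIs, 4 were past 1.5-fold higher and 0 lower, with a median of 1.41. These were *Cox18* (2.29), *Surf1* (1.79), *Cox19* (1.76) and *Cox15* (1.57). Among 4 genes of complex V assembly and inhibition, *Atpaf2* was past 1.5-fold (1.61, 0.88 to 3.21), and the median was 1.07. In the citric acid cycle 1 of 12 was past it, *Mdh2* (1.84, 1.56 to 2.17), with a median of 1.10. Of 9 genes for mitochondrial DNA expression and its regulators 0 were past 1.5-fold, with a median of 1.04, and *Nrf1* had 1.15 (0.83 to 1.64).

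In T cells 32.2% of all genes were past 1.5-fold higher and 16.4% lower. The citric acid cycle had a median of 2.02 (7 of 11 past 1.5-fold higher) and complex II 1.84 (3 of 4). The assembly factors of complexes III and IV had 1.59 (3 of 6 higher and 1 lower). Complex V assembly and inhibition had 3.88 (2 of 2 higher) and cytochrome c and c1 2.29 (2 of 2 higher). Mitochondrial DNA expression and its regulators had 1.25 (0 of 2). Without cells holding a thymocyte-gene UMI (all genes: 19.9% higher) the citric acid cycle had 2 of 4 past 1.5-fold higher and a median of 1.44. In these cells complex II had 1 of 2 and 1.70, and the assembly factors of complexes III and IV 1 of 5 higher, 1 lower and 1.42. Complex V assembly and inhibition had 1 of 1 higher and 2.55, and cytochrome c and c1 1 of 2 and 1.48. In neutrophils against macrophages, where 35.2% of all genes were past 1.5-fold lower with a median of 0.819, complex II had a median of 0.661 and 2 of 4 past 1.5-fold lower. *Cycs* had 0.66 (0.47 to 0.89) and *Cyc1* 0.54 (0.32 to 0.88). The other lists had medians nearer that of all genes. The citric acid cycle had 0.714 (5 of 12 lower, 1 higher), and the assembly factors of complexes III and IV 0.801 (3 of 15 lower, 2 higher). Complex V assembly and inhibition had 0.751 (2 of 4 lower), and mitochondrial DNA expression and its regulators 0.804 (2 of 9 lower, 2 higher). Of all genes, 22.4% were past 1.5-fold higher.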

How the data were processed

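Single-cell 3′ libraries of CD45+ adventitial cells were sequenced per the study's methods, and the authors deposited raw UMI counts per gene and cell barcode, made with Cell Ranger 3.1.0 against GRCm38 with the eYFP sequence added. The members and lists were chosen with earlier results of these data known. Cells with 300 to 6500 detected genes and at most 5% mt- UMIs were kept and gated on marker lists, and doublets were left in because no caller was run. UMIs were summed per class and divided by the class total (CPM). Levels carry exact Poisson intervals, and ratios carry exact conditional binomial intervals, both at 95% and for counting error only. With 1 library per condition no test was made. A gene was read as past 1.5-fold with at least 50 UMIs in both groups together. A gene at 0 in 1 group was counted only where 3 UMIs there would still pass. UMIs do not depend on transcript length, but capture differs between genes.

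Total counts were 4009678 UMIs at steady state and 20481854 on AngII, with medians of 8374.5 and 1117 UMIs per barcode. Named were the 3 highest members of each complex in steady-state macrophages, the 5 highest and 5 lowest ratios of a comparison, tissue isoforms with their partners, members next to the minimum, all mt- protein genes and the pathway lists. *Cox4i1*, *Cox5a* and *Ndufa4* in neutrophils, *Uqcrh* and the thymocyte and pDC groups were chosen after values were seen. Gene positions were read from a GENCODE annotation of GRCm38. Scripts ran in Python 3.11.15 with pandas 2.3.3 for tables, SciPy 1.17.1 for intervals, NumPy 2.4.6 for sums and Matplotlib 3.10.9 for plots, and were tested on simulated data. Alternatives changed the cell filter, denominator, weight of cells, depth, gate, highest cell and member minimum.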

Additional observations from a re-analysis of the deposited data

Results flagged for a closer look

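Of the members measured in macrophages, T cells and B cells, 2 had an interval above 1 in some classes and under 1 in another. *Atp5k*, a small membrane subunit of the ATP synthase, had AngII over steady-state ratios of 1.15 (95% interval 1.05 to 1.27) in macrophages, 1.67 (1.30 to 2.18) in T cells and 0.65 (0.44 to 0.96) in B cells. *Cox6c*, a small subunit of complex IV, had 1.15 (1.07 to 1.24) in macrophages, 1.47 (1.24 to 1.76) in T cells and 0.62 (0.46 to 0.82) in B cells. *Atp5k* in B cells rested on 62 UMIs at steady state and 51 on AngII. The share of all genes with such a pattern is not given here, so how unusual these 2 members are cannot be told. The difference between the classes was not tested, and the intervals cover counting error only.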

How the results depend on the processing

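With 1 library per condition, the spread between animals is unknown, and shallow AngII cells limit what single genes can show. No paired analysis was possible because each condition had 1 library and no test was made. Of the alternatives for sums and counts, 45 differed by less than counting error or 1.5-fold and 2 reversed. Another 35 differed by more without reversing, with some ratios nearer to 1 and some farther from it. For the members named in macrophages, 66 differed by less, 12 by more and 2 reversed. Among the 12, *Atp5g2* crossed 1 in 2 settings (1.20 as a mean of cells and 2.59 thinned). The nuclear ratio in macrophages (1.30) was 1.33 without the cell filter, 1.46 as a mean of cells, 1.38 thinned to 1000 UMIs, 1.42 at 2000 to 20000 UMIs and 1.32 with the strict gate. In the same settings and order, resident macrophages (1.27) had 1.31, 1.40, 1.36, 1.38 and 1.30. Members past 1.5-fold higher (7) numbered 14, 36, 29, 27 and 13, beside 15.04%, 20.7%, 26.4%, 18.3% and 15.4% of all genes, and members lower (2) numbered 1 when thinned and 1 with the strict gate. The mt- ratio in macrophages (1.12) reversed to 0.970 as a mean of cells and 0.943 when thinned, and was 1.15 at 2000 to 20000 UMIs. *Atp5l* reversed to 1.10 as a mean of cells and 1.39 when thinned. Neutrophils over macrophages (0.892) had 0.819 without mt- and ribosomal genes in the denominator, 0.917 thinned, 0.954 at 2000 to 20000 UMIs and 0.921 with the strict gate. Arg1_Spp1 over resident macrophages (1.09) had 1.07 without the cell filter, 1.11 with the other denominator, 1.06 as a mean of cells and 1.07 thinned. Alternatives for resident macrophages, T cells and B cells and for single members were chosen after seeing the data. T cells (1.85) had 1.73 with the other denominator, 1.74 thinned, 1.46 at 2000 to 20000 UMIs, 1.92 with the strict gate, 1.44 without thymocyte-gene cells and 1.31 with both limits. B cells (1.08) had 1.13 with the other denominator, 1.16 as a mean of cells and 1.14 with the loose gate. The member minimum has no bearing on the mt- sum, so it gave no value there. The cause of these shifts was not tested.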
